A study of Homo sapiens with 12 samples.

Results

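The 10 genes described here encode enzymes that make heme and the 2 heme oxygenases that open its ring: ALAS1, ALAS2, ALAD, UROS, UROD, CPOX, PPOX, FECH, HMOX1 and HMOX2. They were taken by name, and all 10 were among the 18417 genes tested. RNA was profiled in 2 human leukemia lines that both carry the JAK2V617F mutation, HEL and UKE1. The 4 groups were HEL cells given 250 nM ITF2357 for 6 h, untreated HEL cells kept for 6 h, UKE1 cells given 250 nM ITF2357 for 6 h and untreated UKE1 cells kept for 6 h. ITF2357, also called givinostat, inhibits histone deacetylases, the enzymes that strip acetyl marks off histones and further proteins. Each group held 3 Affymetrix Gene 1.0 ST arrays, 12 in all, from samples called independent triplicates. The labels do not describe how the cultures were separated, so the p-values measure only the spread between these samples, which may be technical. Horse serum and hydrocortisone were added to UKE1 medium alone, so that line and medium cannot be told apart in any comparison of UKE1 with HEL.

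Heme is an iron-porphyrin that carries oxygen in hemoglobin and electrons in cytochromes. Its synthesis starts in the mitochondrion, where an aminolevulinate synthase joins glycine to succinyl-CoA. The middle steps run in the cytosol, and the last ones return to the mitochondrion, where ferrochelatase inserts iron. ALAS1 is the synthase of most tissues and is held down by heme, whereas ALAS2 is the synthase of erythroid cells. Heme oxygenases break heme into biliverdin, carbon monoxide and iron. HMOX1 is the inducible oxygenase, repressed by BACH1 and activated by NRF2, and HMOX2 is the constitutive one.

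All values are deposited log2 expression values, with 1 row kept per gene, and the files give no call of whether a gene was detected. The array medians lay between 6.41 and 6.50, and levels near or below them cannot be called detected or not. Among the enzymes this covers ALAS2 and HMOX1 in UKE1 cells and, just above the medians, PPOX in untreated UKE1 cells. The same limit applies below to ABCG2 in both lines and to BLVRA, FLVCR2, NQO1 and SLC7A11 in UKE1 cells. It applies also to SRXN1 in untreated UKE1 cells, STEAP3 and IBA57 in treated UKE1 cells, and LYRM4 and NQO1 in treated HEL cells. Of the markers named, it applies to HBE1 in UKE1 cells and to AHSP. Arrays of the same group correlated at 0.996 to 0.998 over the 18417 genes, arrays of the same line under the other treatment at 0.974 to 0.979, and HEL with UKE1 arrays at 0.882 to 0.902. The mean of the 8 measured erythroid markers of 12 listed was 8.32 to 8.41 on the arrays of treated HEL cells and 8.37 to 8.41 on those of untreated HEL cells. It was 6.17 to 6.26 with ITF2357 and 6.20 to 6.27 without it in UKE1 cells. Of the 8, 7 were lower and 1, AHSP, was higher in untreated UKE1 than in untreated HEL cells, with a median difference of −1.21; AHSP averaged 3.97 in untreated UKE1 and 3.74 in untreated HEL cells. The widest gap was that of HBE1, an embryonic globin, which averaged 5.24 in treated UKE1 cells against 12.96 in treated HEL cells, and 5.19 in untreated UKE1 cells against 12.95 in untreated HEL cells. The mean of the 5 measured lymphoid markers of 6 was 7.27 to 7.32 in treated UKE1 cells against 5.07 to 5.22 in treated HEL cells, and 7.64 to 7.74 in untreated UKE1 cells against 5.24 to 5.38 in untreated HEL cells. The 6 measured megakaryocyte markers of 7 averaged 8.32 to 8.42 in treated HEL cells against 8.88 to 8.97 in untreated HEL cells, and 7.85 to 7.92 in treated UKE1 cells against 8.32 to 8.44 in untreated UKE1 cells. The 7 measured myeloid markers of 8 averaged 6.37 to 6.47 in treated against 6.41 to 6.52 in untreated HEL cells, and 6.99 to 7.10 in treated against 7.04 to 7.22 in untreated UKE1 cells. The part of these marker differences in the results below was not tested. In such bulk RNA, fewer cells of a type and less RNA per cell cannot be told apart.

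The upstream sequences of 4 of the genes are printed as examples. Of these, ALAS1 and CPOX rose in both lines, UROD fell in both, and ALAS2 passed the test in neither. ALAD and FECH also rose in both lines and are not printed. Whether motifs go with responses was not tested. Each printed sequence is the 250 bases before the gene's start in RefSeq on GRCh38.p14, 5′ to 3′ on the gene's own strand. Capitals mark every match to the motifs named after them.
ALAS1 at chr3:52197833-52198082, plus strand: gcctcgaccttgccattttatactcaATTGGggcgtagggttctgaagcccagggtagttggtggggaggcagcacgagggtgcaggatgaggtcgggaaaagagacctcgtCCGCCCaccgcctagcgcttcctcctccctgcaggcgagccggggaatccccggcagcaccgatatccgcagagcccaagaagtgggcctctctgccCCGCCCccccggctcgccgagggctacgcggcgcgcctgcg
ALAS2 at chrX:55030978-55031227, minus strand: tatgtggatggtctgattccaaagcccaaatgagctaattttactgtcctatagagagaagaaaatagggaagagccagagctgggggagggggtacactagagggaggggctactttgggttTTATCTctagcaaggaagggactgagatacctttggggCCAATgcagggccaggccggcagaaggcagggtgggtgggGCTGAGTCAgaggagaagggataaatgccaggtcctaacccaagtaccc
CPOX at chr3:98593612-98593861, minus strand: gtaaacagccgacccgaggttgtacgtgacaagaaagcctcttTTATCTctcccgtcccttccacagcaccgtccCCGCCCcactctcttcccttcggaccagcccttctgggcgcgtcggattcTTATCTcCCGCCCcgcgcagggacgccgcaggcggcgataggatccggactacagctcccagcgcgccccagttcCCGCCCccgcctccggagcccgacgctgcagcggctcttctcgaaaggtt
UROD at chr1:45012004-45012253, plus strand: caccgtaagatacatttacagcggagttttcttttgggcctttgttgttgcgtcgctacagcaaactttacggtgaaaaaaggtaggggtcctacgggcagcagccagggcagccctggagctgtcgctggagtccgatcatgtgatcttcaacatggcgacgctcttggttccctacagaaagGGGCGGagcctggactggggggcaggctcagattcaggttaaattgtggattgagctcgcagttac
A 30-base stretch just after the ALAS1 start carries, in capitals, overlapping matches on both strands to the site of NRF1, a factor known for driving genes of mitochondrial function.
ALAS1 at chr3:52198094-52198123, plus strand: agcgcccaagGCGCATGCGCagcggtcact
A 30-base stretch after the ALAS2 start carries the loop of its iron-responsive element, the RNA hairpin through which low iron blocks ALAS2 translation, with the loop letters in capitals.
ALAS2 at chrX:55030940-55030969, minus strand: ttcgttcgtcctCAGTGcagggcaacaggt

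Windows of 250 bases before to 50 after the start were available for 8 of the 10 genes, 11 windows in all, and each motif was searched on both strands. UROS and HMOX1 had no window, so no motif was searched for these genes. An erythroid GATA word, AGATAA or TGATAA or AGATAG or TGATAG, lay in 5 of the 11 windows, those of 5 genes, against 25.0% of all 35116 windows in the RefSeq table. In the ALAS2 window it began at position −127 from the start, and in the CPOX window matches began at −207 and −125. The NFE2 word TGACTCA lay only in the ALAS2 window among the 11, against 4.95% of all windows, and overlapped there a match to the antioxidant response word TGACNNNGC. That word was also found in the FECH window, against 13.3% of all windows. The NRF1 word GCGCATGCG lay only in the ALAS1 window, against 1.92% of all windows. The GC box GGGCGG lay in 8 of the 11 windows against 45.0% of all windows, CCAAT in 5 against 34.6%, the MYC word CACGTG in 1, for HMOX2, against 7.26%, and CCACACCC in 1, for PPOX, against 3.28%. The UROD window matched the GC box alone. A match describes letters and not a bound site.

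After 6 h of ITF2357, 8 of the 10 genes differed in HEL cells and 7 of 10 in UKE1 cells. In HEL cells 5 genes rose (22.6% of all genes tested rose) and 3 fell (19.9% of all genes). In UKE1 cells 6 rose (22.0% of all genes) and 1 fell (22.3% of all genes). ALAS1, ALAD, CPOX and FECH rose in both lines, against 14.0% of all genes, and UROD fell in both, against 12.9% of all genes. HMOX1 moved in opposite directions, as 2.10% of all genes did. The median change of the 10 genes was 0.22 in HEL cells and 0.34 in UKE1 cells, beside −0.01 and 0.01 over all genes. UROS and HMOX2 passed the test in HEL cells alone, PPOX in UKE1 cells alone, and ALAS2 in neither.

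**Figure D1:**
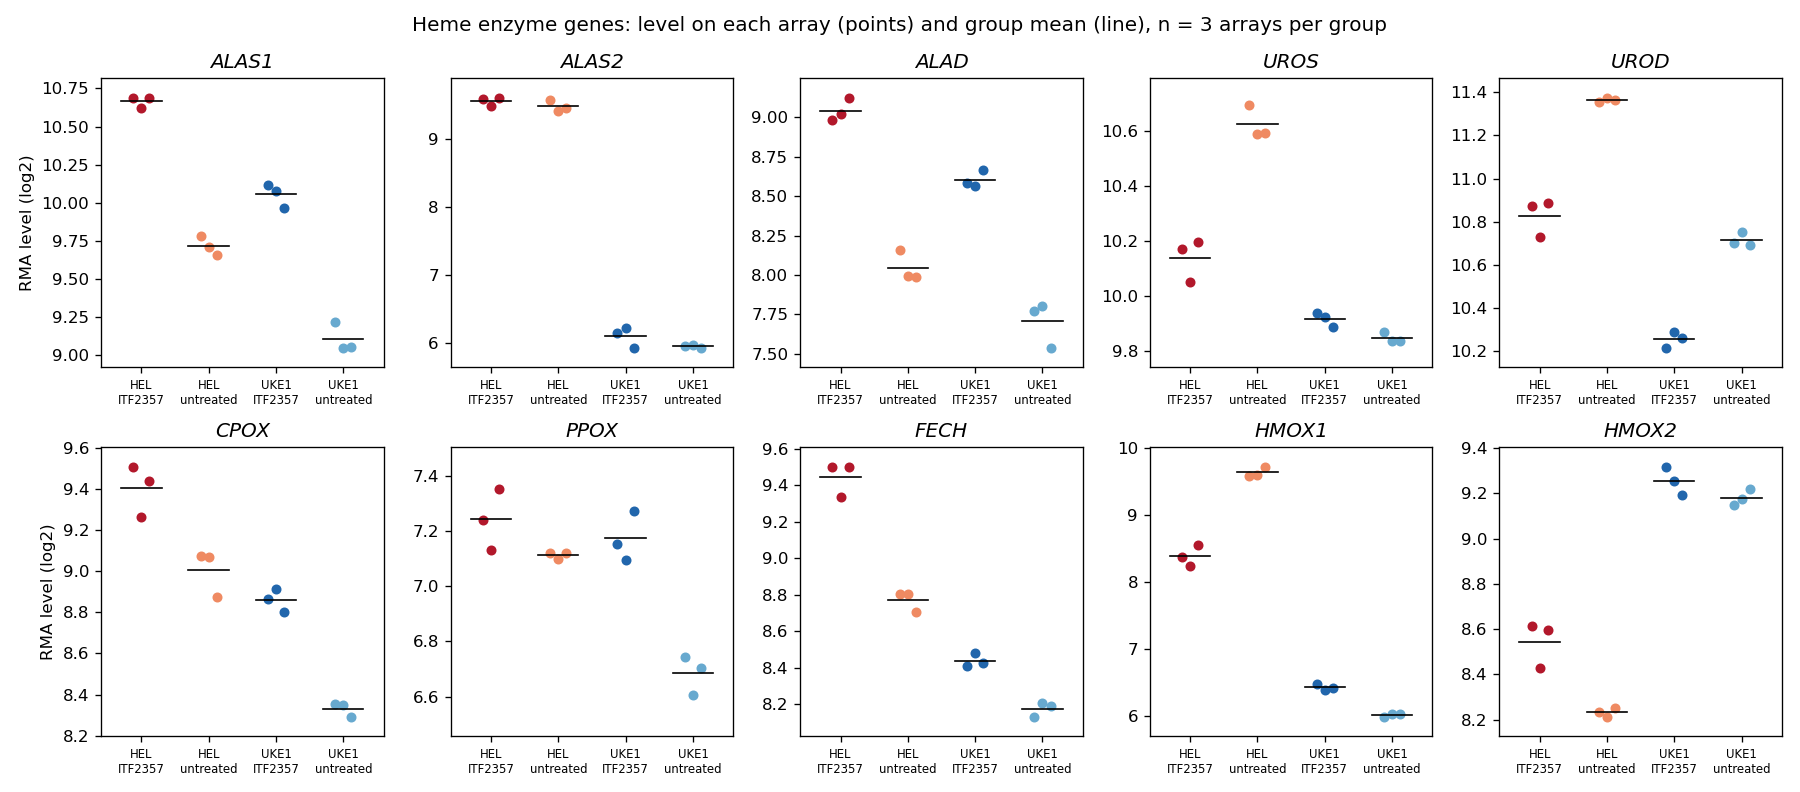
Expression of the 10 genes (log2, vertical axis) on each of the 12 arrays, with 1 point per array and the group mean as a bar, treated left of untreated within each line. ALAS1 and ALAD lie higher with ITF2357 in both lines, UROD lies lower in both, and HMOX1 lies lower in treated HEL cells and slightly higher in treated UKE1 cells.

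ALAS1, the synthase of most tissues, rose in both lines. In HEL cells it measured 10.69, 10.62 and 10.69 with ITF2357, against 9.78, 9.71 and 9.66 in untreated cells. UKE1 cells gave 10.12, 10.08 and 9.97 with ITF2357, against 9.22, 9.05 and 9.05 in untreated cells. Treated and untreated arrays did not overlap in either line. The rise was 0.95 ± 0.07 (SE) in HEL cells, or 1.93-fold (adjusted p = 8.72e-08), and 0.95 in UKE1 cells, again 1.93-fold (adjusted p = 7.33e-08). The difference between the 2 responses had a 95% interval of −0.21 to 0.21 (adjusted p = 0.997).

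ALAS2, the erythroid synthase, stood far lower in UKE1 than in HEL cells, and its change with ITF2357 passed the test in neither line. It measured 9.58, 9.48 and 9.60 in treated HEL cells, against 9.57, 9.41 and 9.46 in untreated HEL cells. Treated UKE1 cells gave 6.16, 6.22 and 5.93, against 5.96, 5.97 and 5.94 in untreated UKE1 cells. Both pairs of groups overlapped. The change was 0.07 in HEL cells, with a 95% interval of −0.091 to 0.24 (adjusted p = 0.490), and 0.15 in UKE1 cells, with one of −0.02 to 0.31 (adjusted p = 0.150). Without the third array of treated UKE1 cells, the change in that line was 0.23 and passed the test (adjusted p = 0.0187). The UKE1 levels lay below the array medians.

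Among the cytosolic enzymes, ALAD rose, UROD fell, and UROS fell in HEL cells. ALAD, which joins aminolevulinate molecules into porphobilinogen, measured 8.98, 9.02 and 9.12 in treated HEL cells, against 8.16, 7.99 and 7.99 in untreated ones. In UKE1 cells it measured 8.58, 8.57 and 8.67 with ITF2357, against 7.77, 7.81 and 7.54 without it. Its rise was 0.99 ± 0.08 (SE) in HEL cells, or 1.99-fold (adjusted p = 2.67e-07), and 0.90 in UKE1 cells, or 1.86-fold (adjusted p = 6.08e-07). Every treated array lay above every untreated array of its line.

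UROD, which removes carboxyl groups from uroporphyrinogen, went the other way from ALAD. HEL cells gave 10.87, 10.73 and 10.88 with ITF2357, against 11.35, 11.37 and 11.36 without it. UKE1 cells gave 10.22, 10.29 and 10.26 with ITF2357, against 10.70, 10.75 and 10.69 without it. All treated arrays lay below the untreated ones of their line. The fall was 1.45-fold in HEL cells (−0.53 ± 0.06 SE, adjusted p = 4.76e-06) and 1.37-fold in UKE1 cells (−0.46, adjusted p = 1.95e-05).

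UROS closes the porphyrin ring in the step before UROD. It measured 10.17, 10.05 and 10.20 in treated HEL cells, against 10.70, 10.59 and 10.59 in untreated HEL cells, with no overlap. In UKE1 cells the treated arrays, at 9.94, 9.93 and 9.89, lay just above the untreated ones, at 9.87, 9.84 and 9.84. UROS fell 1.40-fold in HEL cells (−0.49 ± 0.06 SE, adjusted p = 1.24e-05). Its change of 0.07 in UKE1 cells did not pass the test (adjusted p = 0.388).

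Of the late mitochondrial enzymes, CPOX and FECH rose in both lines and PPOX in UKE1 cells. CPOX, which oxidises coproporphyrinogen, measured 9.51, 9.26 and 9.44 in treated HEL cells, against 9.07, 9.07 and 8.88 in untreated HEL cells. UKE1 cells gave 8.87, 8.91 and 8.80 with ITF2357, against 8.35, 8.35 and 8.29 without it. The groups did not overlap in either line. CPOX rose 1.32-fold in HEL cells (0.40 ± 0.08 SE, adjusted p = 0.000657) and 1.44-fold in UKE1 cells (0.53, adjusted p = 5.30e-05).

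PPOX makes protoporphyrin in the step after CPOX. It measured 7.24, 7.13 and 7.35 in treated HEL cells, against 7.12, 7.10 and 7.12 in untreated HEL cells. In UKE1 cells it measured 7.15, 7.09 and 7.28 with ITF2357, against 6.75, 6.61 and 6.70 without it. Treated arrays lay above untreated ones in both lines, by a narrow margin in HEL cells. PPOX rose 1.40-fold in UKE1 cells (0.49 ± 0.07 SE, adjusted p = 5.85e-05), and its change of 0.13 in HEL cells did not pass the test (adjusted p = 0.173). The untreated UKE1 levels of PPOX lay just above the array medians.

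FECH, the ferrochelatase that inserts iron, measured 9.50, 9.34 and 9.50 in treated HEL cells, against 8.81, 8.81 and 8.71 in untreated HEL cells. UKE1 cells gave 8.41, 8.48 and 8.43 with ITF2357, against 8.13, 8.21 and 8.19 without it. No treated array overlapped an untreated one of its line. The rise was 1.59-fold in HEL cells (0.67 ± 0.06 SE, adjusted p = 1.09e-06) and 1.20-fold in UKE1 cells (0.26, adjusted p = 0.00359).

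In HEL cells HMOX1 fell and HMOX2 rose, and in UKE1 cells HMOX1 rose. HMOX1, the inducible enzyme, measured 8.37, 8.24 and 8.55 in treated HEL cells, against 9.58, 9.60 and 9.72 in untreated HEL cells. In UKE1 cells it measured 6.48, 6.39 and 6.42 with ITF2357, against 5.99, 6.04 and 6.04 without it. Treated arrays lay below all untreated ones in HEL cells and above all of them in UKE1 cells. HMOX1 fell 2.37-fold in HEL cells (−1.24 ± 0.08 SE, adjusted p = 2.46e-08) and rose 1.33-fold in UKE1 cells (0.41, adjusted p = 0.000460). The UKE1 levels lay near or below the array medians.

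HMOX2, the constitutive oxygenase, measured 8.61, 8.43 and 8.59 in treated HEL cells, against 8.23, 8.21 and 8.25 in untreated HEL cells. UKE1 cells gave 9.32, 9.25 and 9.19 with ITF2357, against 9.15, 9.18 and 9.22 without it. The groups were separate in HEL cells and overlapped in UKE1 cells. HMOX2 rose 1.24-fold in HEL cells (0.31 ± 0.06 SE, adjusted p = 0.00111), and its change of 0.07 in UKE1 cells did not pass the test (adjusted p = 0.404).

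**Figure D2:**
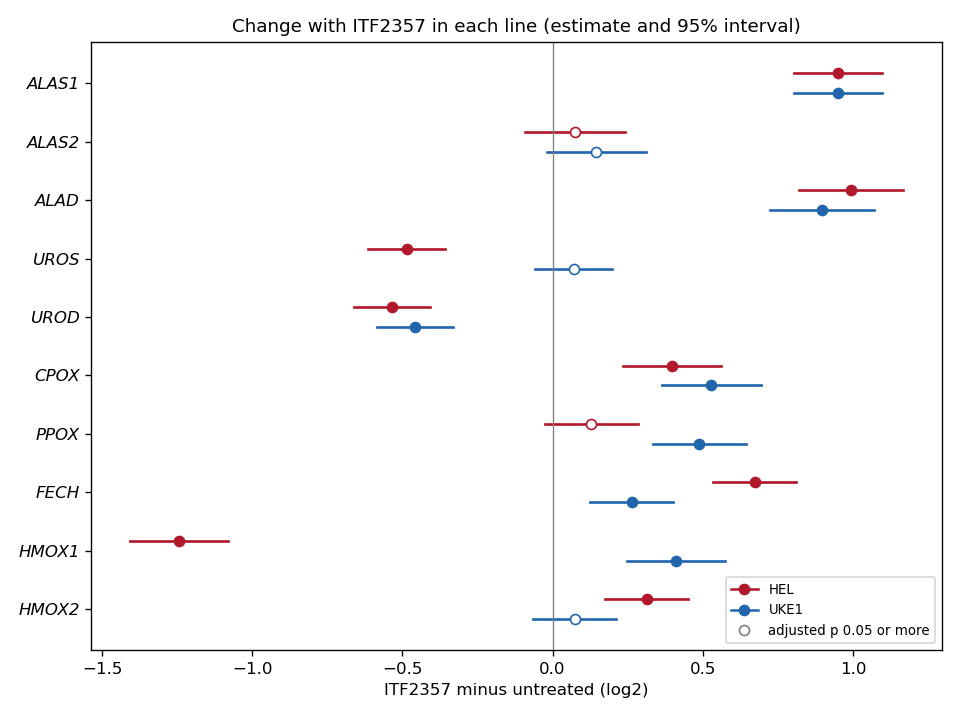
Change with ITF2357 (treated minus untreated, log2, horizontal axis) of each gene in HEL and UKE1 cells, as the estimate with its 95% interval; open points did not pass an adjusted p of 0.05. ALAS1 and ALAD lie near 0.9 to 1.0 in both lines, and HMOX1 lies at −1.24 in HEL cells and 0.41 in UKE1 cells.

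The response itself differed between the lines for 4 genes: 3 with a higher response in UKE1 cells (10.1% of all genes) and 1 with a lower one (13.8% of all genes). The HMOX1 response was 1.65 ± 0.11 (SE) higher in UKE1 cells (adjusted p = 3.32e-07). HMOX1 averaged 6.43 in treated and 6.02 in untreated UKE1 cells, near or below the array medians, so this difference compares signals alone. The UROS response was 0.56 ± 0.08 higher (adjusted p = 0.000327) and the PPOX response 0.36 ± 0.10 higher (adjusted p = 0.0192). The FECH response was lower in UKE1 cells by 0.41 (−0.41 ± 0.09, adjusted p = 0.00461). The PPOX difference narrowly lost its call without the second untreated UKE1 array (0.32, adjusted p = 0.0503) or the third treated UKE1 array (0.31, adjusted p = 0.0508). The HMOX2 difference, −0.24, did not pass the test (adjusted p = 0.0732), and passed it without the second treated HEL array (−0.30, adjusted p = 0.0248). For ALAD, UROD and CPOX the 95% intervals of the difference were −0.34 to 0.15, −0.10 to 0.26 and −0.10 to 0.36, each spanning 0.

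UKE1 cells held less of nearly the whole set than HEL cells. Untreated, 9 genes were lower in UKE1 cells (34.4% of all genes) and 1, HMOX2, was higher (33.3% of all genes). The measured values of ALAS2 were 11.5-fold lower (−3.52 ± 0.08 SE, adjusted p = 4.30e-14) and those of HMOX1 12.2-fold lower (−3.61 ± 0.08, adjusted p = 3.04e-14). Since the UKE1 levels of both cannot be called detected, these folds compare signals and do not size the RNA difference. Among the other 7 lower genes the gap ran from 1.27-fold for ALAD to 1.72-fold for UROS. HMOX2 was 1.93-fold higher in UKE1 cells (0.95, adjusted p = 9.83e-09). Between the untreated lines, the erythroid and megakaryocyte marker means given above were lower in UKE1 cells, and the lymphoid and myeloid means were higher. By gene, 5 of the 6 megakaryocyte markers were lower and 1 was higher, and 4 of the 5 lymphoid markers were higher. Of the 7 myeloid markers, 3 were higher and 2 lower, with a median difference of −0.09, so the higher myeloid mean was not shared by the list. Over all genes 33.3% were higher and 34.4% lower. The part of the markers in these line differences was not tested.

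With ITF2357 in both lines, 8 genes were lower in UKE1 cells (34.0% of all genes) and HMOX2 was higher (34.0% of all genes). With the same limit, the ALAS2 signal was 10.9-fold lower (−3.45, adjusted p = 6.23e-14) and that of HMOX1 3.88-fold lower (−1.96, adjusted p = 2.46e-11), and FECH was 2.01-fold lower (−1.01, adjusted p = 4.99e-09). PPOX overlapped between the lines and did not pass the test (−0.07, adjusted p = 0.405). The lower UROS level (−0.22, adjusted p = 0.00452) did not pass the test when the arrays were quantile-normalised again (−0.06, adjusted p = 0.379).

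**Figure D3:**
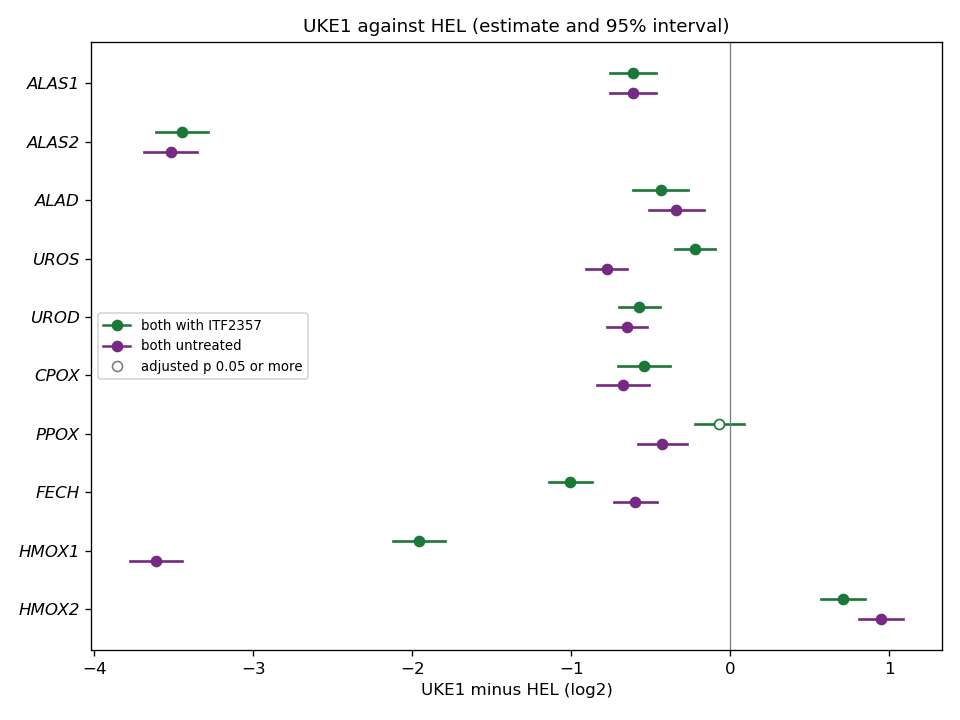
UKE1 minus HEL (log2, horizontal axis) for each gene, with both lines treated and with both untreated, as the estimate with its 95% interval; open points did not pass an adjusted p of 0.05. ALAS2 stays near −3.5 in both comparisons, HMOX1 lies at −1.96 treated and −3.61 untreated, and HMOX2 is the one gene above 0.

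The order of the 4 groups differed by gene. ALAS1 and ALAD ran from treated HEL through treated UKE1 and untreated HEL to untreated UKE1, and every neighbouring pair differed (adjusted p at most 0.00184). CPOX and FECH ran from treated HEL through untreated HEL and treated UKE1 to untreated UKE1, and only treated UKE1 and untreated HEL did not differ beyond their spread for CPOX (adjusted p = 0.101). UROD was highest in untreated HEL cells and lowest in treated UKE1 cells, while untreated UKE1 and treated HEL in the middle did not differ beyond their spread (adjusted p = 0.0986). UROS and HMOX1 were highest in untreated HEL cells, then in treated HEL cells, with both UKE1 groups lower. For PPOX, treated UKE1 cells did not differ beyond the spread from treated HEL cells (adjusted p = 0.405) or untreated HEL cells (adjusted p = 0.466). HMOX2 was the gene with both UKE1 groups on top.

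For the 8 genes whose group means spanned at least 1 log2 unit, the most similar profiles over the 12 arrays were sought among the 5260 genes with such a span. With 4 groups, many genes share a profile, so Pearson's r is given as a description. ALAS1 was closest to SCPEP1, SYT11 and SMPDL3B (r = 0.995, 0.995 and 0.994), and ALAD to STAT4, IFT20 and PPP1R3B (0.994, 0.990 and 0.989). ALAS2 was closest to DHRS3, CTSL and HOXB9 (r = 1.000, 0.999 and 0.999). UROD was closest to NDUFAF4, POLR1C and FAAP24 (r = 0.994, 0.994 and 0.992), and CPOX to TPRG1L, TRAPPC4 and SIRT7 (0.989, 0.985 and 0.985). FECH was closest to MYLIP, BPNT1 and ERO1B (r = 0.994, 0.993 and 0.991). HMOX1 was closest to MACC1, ELOA and TGFB1I1 (r = 0.996, 0.995 and 0.995), and HMOX2 to NR6A1, CD99 and ST6GAL1 (0.995, 0.994 and 0.993).

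Genes that work beside these enzymes were read from listed groups, whose counts are to be read against all genes, of which 22.6% rose and 19.9% fell in HEL cells, and 22.0% rose and 22.3% fell in UKE1 cells. Of 3 measured partners of heme breakdown, 2 rose and 0 fell in each line by limma, and at an unadjusted p below 0.05 the count that fell was also 0; their median change was 0.45 in HEL cells and 0.52 in UKE1 cells. BLVRA, a biliverdin reductase, rose by 0.92 in HEL cells (adjusted p = 2.33e-06) and 0.52 in UKE1 cells (adjusted p = 0.000417). In UKE1 cells BLVRA averaged 6.55 with ITF2357 and 6.03 without it, near or below the array medians. POR, the reductase that feeds electrons to heme oxygenase, rose by 0.45 in HEL cells (adjusted p = 0.000520) and 0.72 in UKE1 cells (adjusted p = 6.99e-06). The change of BLVRB, the other biliverdin reductase, was 0.12 in HEL cells (adjusted p = 0.397) and 0.24 in UKE1 cells (adjusted p = 0.0681). Another listed gene was not analysed here.

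Of 9 measured transporters of heme and its precursors, 2 rose and 0 fell in HEL cells by limma (0 fell at an unadjusted p below 0.05), with a median change of 0.10, and 3 rose and 2 fell in UKE1 cells, with a median of 0.05. The 2 that rose in HEL cells and the 2 that fell in UKE1 cells are near the shares of all genes, 22.6% and 22.3%, and 22.0% of all genes rose in UKE1 cells. ABCG2, a porphyrin exporter, rose by 0.52 in HEL cells (adjusted p = 0.000270) and 0.31 in UKE1 cells (adjusted p = 0.0111). ABCG2 averaged 6.68 in treated and 6.16 in untreated HEL cells, and 4.51 and 4.20 in UKE1 cells, near or below the array medians. TMEM14C, which moves protoporphyrinogen into the mitochondrion, rose by 0.23 in HEL cells (adjusted p = 0.0142). In UKE1 cells FLVCR2 rose by 0.58 (adjusted p = 5.55e-05), from 5.92 to 6.50, near or below the array medians. ABCB10, a mitochondrial transporter of erythroid cells, fell by 0.35 there (adjusted p = 0.000411), and SLC25A38, the mitochondrial glycine carrier, fell by 0.30 (adjusted p = 0.00245).

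Of 16 measured genes of iron uptake, storage and sensing, 7 rose and 3 fell in HEL cells (median 0.06), and 3 rose and 5 fell in UKE1 cells (median −0.08). Of all genes 22.6% rose and 19.9% fell in HEL cells and 22.0% rose and 22.3% fell in UKE1 cells, so that the 3 that fell in HEL cells and the 3 that rose in UKE1 cells are near that share. ACO1, the iron regulatory protein 1 that binds hairpins such as the one of ALAS2, rose by 1.02 in HEL cells (adjusted p = 5.10e-08) and 1.00 in UKE1 cells (adjusted p = 4.88e-08). NCOA4, which delivers ferritin for breakdown, rose by 0.58 in HEL cells (adjusted p = 2.86e-06) and 0.29 in UKE1 cells (adjusted p = 0.00132). STEAP3, a ferric reductase of endosomes, fell by 0.71 in HEL cells (adjusted p = 7.78e-07) and 0.45 in UKE1 cells (adjusted p = 4.87e-05). PCBP1, an iron chaperone, fell by 0.74 in HEL cells (adjusted p = 1.04e-05) and 0.72 in UKE1 cells (adjusted p = 1.31e-05).

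In UKE1 cells the ferric reductase CYBRD1 fell by 1.54 (adjusted p = 4.98e-10), with a change of −0.05 in HEL cells, and the responses, UKE1 minus HEL, differed by −1.49 (adjusted p = 1.15e-07). SLC40A1, the iron exporter ferroportin, fell by 1.22 in UKE1 cells (adjusted p = 2.43e-08), with a change of −0.02 in HEL cells and a difference of −1.20 (adjusted p = 4.75e-06). TFRC, the transferrin receptor, rose by 0.25 in HEL cells (adjusted p = 0.0102), and its change of −0.02 in UKE1 cells did not pass the test.

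Of 12 measured genes of iron-sulfur cluster assembly, 4 rose and 3 fell in HEL cells (median 0.03), and 4 rose and 4 fell in UKE1 cells (median −0.14), beside 22.6% and 19.9% of all genes in HEL cells and 22.0% and 22.3% in UKE1 cells. GLRX5 rose by 0.81 in HEL cells (adjusted p = 8.66e-07) and 0.60 in UKE1 cells (adjusted p = 1.29e-05), and the scaffold ISCU rose by 0.44 in HEL cells and 0.71 in UKE1 cells. ISCA2 rose by 0.48 in HEL cells and 0.36 in UKE1 cells. In HEL cells IBA57 fell by 0.77, LYRM4 by 0.48 and the chaperone HSPA9 by 0.47, and in UKE1 cells they fell by 0.46, 0.39 and 0.19. Of the 5 genes of heme A and cytochrome c, 5 fell in HEL cells (median −0.30, beside 19.9% of all genes) and 4 in UKE1 cells (median −0.35, beside 22.3% of all genes). HCCS, which attaches heme to cytochrome c, fell by 0.18 in HEL cells (adjusted p = 0.0240), and its change of −0.01 in UKE1 cells did not pass the test (adjusted p = 0.923). COX10, which starts heme A synthesis, fell by 0.67 in HEL cells (adjusted p = 3.28e-06) and 0.95 in UKE1 cells (adjusted p = 1.28e-07). In HEL cells COX15 fell by 0.20, CYC1, a subunit of the bc1 complex, by 0.66 and CYCS, cytochrome c itself, by 0.30, and in UKE1 cells they fell by 0.35, 0.47 and 0.24.

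**Figure D4:**
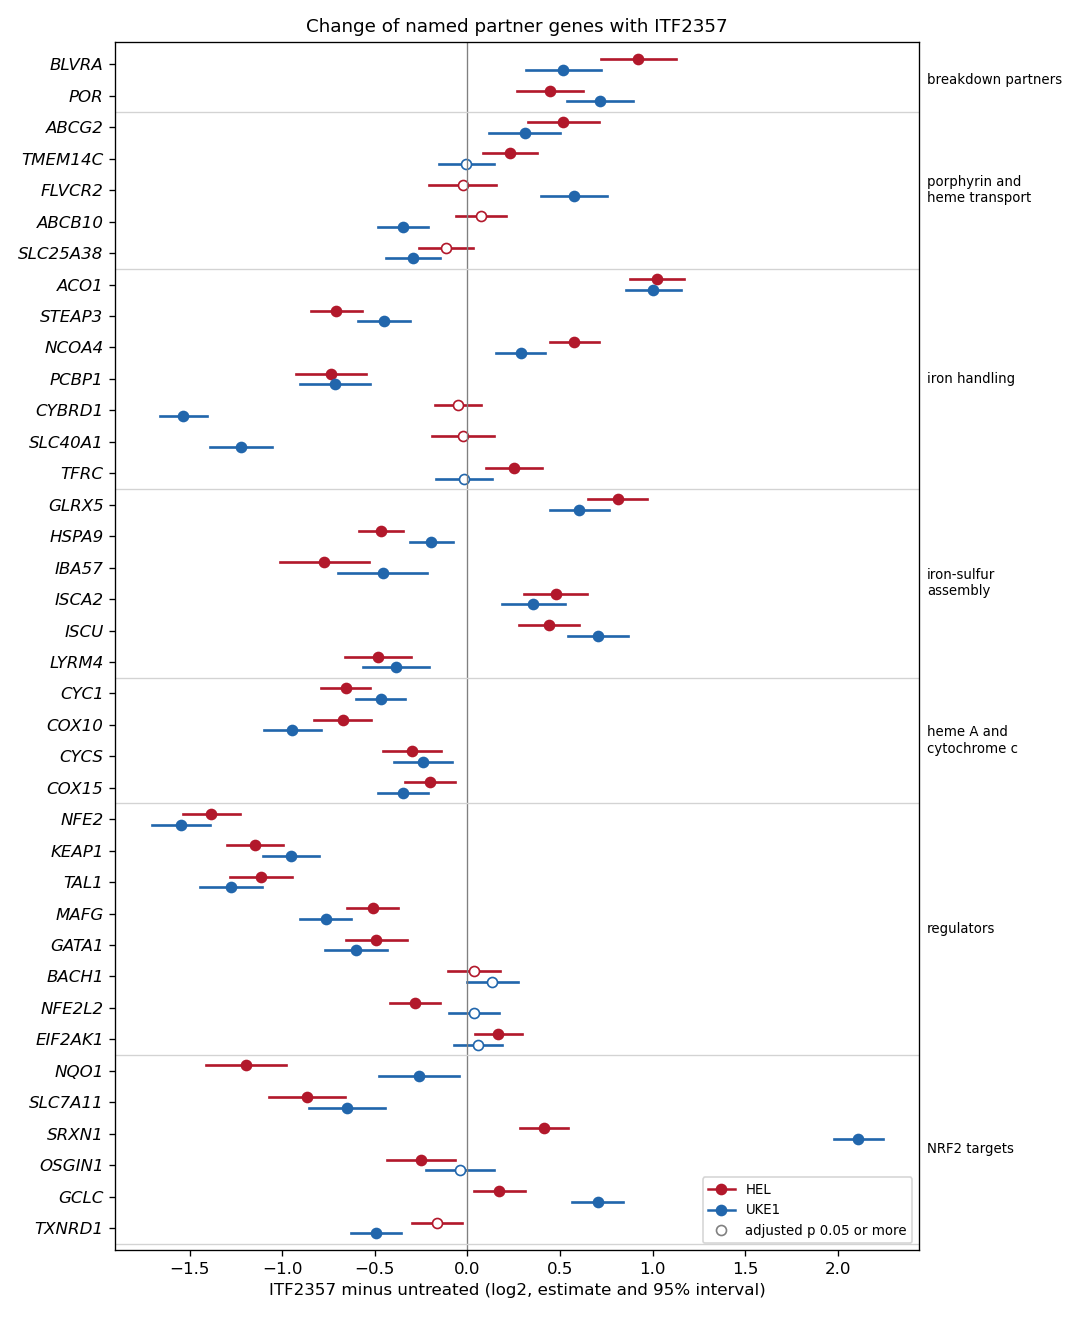
Change with ITF2357 (log2, horizontal axis) of the named partner genes, by group, in HEL and UKE1 cells, as the estimate with its 95% interval; open points did not pass an adjusted p of 0.05. The 4 named genes of heme A and cytochrome c lie below 0 in both lines, while those of iron handling and iron-sulfur assembly lie on both sides.

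Of 16 measured regulators of heme synthesis and breakdown, 2 rose and 10 fell in HEL cells (median −0.30), and 0 rose (1 at an unadjusted p below 0.05) and 8 fell in UKE1 cells by limma (median −0.13). Over all genes 22.6% rose and 19.9% fell in HEL cells, and 22.0% rose and 22.3% fell in UKE1 cells. NFE2 fell by 1.38 in HEL cells (adjusted p = 7.05e-09) and 1.55 in UKE1 cells (adjusted p = 2.15e-09), and TAL1 by 1.12 in HEL cells (adjusted p = 7.48e-08) and 1.28 in UKE1 cells (adjusted p = 1.86e-08). GATA1, which drives ALAS2 in erythroid cells, fell by 0.49 in HEL cells (adjusted p = 0.000113) and 0.60 in UKE1 cells (adjusted p = 1.70e-05). KLF1, an erythroid factor, fell by 0.47 in HEL cells (adjusted p = 0.00022), with a change of −0.03 in UKE1 cells (adjusted p = 0.817) and a difference between responses, UKE1 minus HEL, of 0.45 (adjusted p = 0.011). In UKE1 cells KLF1 averaged 6.81 with ITF2357 and 6.84 without it, not far above the array medians, which limits its UKE1 change and the difference. Untreated UKE1 cells held less GATA1 than untreated HEL cells, by −2.81 (adjusted p = 4.44e-13).

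Among the regulators of HMOX1, KEAP1, the adaptor that marks NRF2 for breakdown, fell by 1.15 in HEL cells (adjusted p = 2.51e-08) and 0.95 in UKE1 cells (adjusted p = 1.02e-07). MAFG, a partner of NRF2 and BACH1, fell by 0.51 in HEL cells and 0.77 in UKE1 cells. BACH1 did not pass the test, at 0.03 in HEL cells (adjusted p = 0.721) and 0.13 in UKE1 cells (adjusted p = 0.112). NFE2L2, which encodes NRF2, fell by 0.28 in HEL cells (adjusted p = 0.00185), with a change of 0.04 in UKE1 cells and a difference between responses, UKE1 minus HEL, of 0.32 (adjusted p = 0.0174). EIF2AK1, the kinase that slows translation when heme is short, rose by 0.17 in HEL cells (adjusted p = 0.0369), and its change of 0.06 in UKE1 cells did not pass the test.

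Of 7 measured NRF2 targets outside heme metabolism, 2 rose and 3 fell in each line, with medians of −0.16 in HEL cells and −0.09 in UKE1 cells, beside 22.6% and 19.9% of all genes in HEL cells and 22.0% and 22.3% in UKE1 cells. SRXN1, which repairs peroxiredoxins, rose by 0.41 in HEL cells (adjusted p = 6.47e-05) and 2.11 in UKE1 cells (adjusted p = 6.76e-11), a difference of 1.70 (adjusted p = 6.61e-08). GCLC, the first enzyme of glutathione synthesis, rose by 0.17 in HEL cells (adjusted p = 0.0449) and 0.70 in UKE1 cells (adjusted p = 7.29e-07). NQO1, a quinone reductase, fell by 1.19 in HEL cells (adjusted p = 3.78e-07) and 0.26 in UKE1 cells (adjusted p = 0.048), a difference of 0.93 (adjusted p = 0.000342). SLC7A11, the cystine carrier, fell by 0.87 in HEL cells and 0.65 in UKE1 cells. In treated and untreated UKE1 cells NQO1 averaged 5.39 and 5.65 and SLC7A11 5.82 and 6.47, and SRXN1 averaged 6.30 in untreated UKE1 cells. These lay near or below the array medians, so the UKE1 changes and the differences from HEL cells compare signals alone. OSGIN1 fell by 0.25 in HEL cells (adjusted p = 0.0272), and TXNRD1, a thioredoxin reductase, fell by 0.50 in UKE1 cells (adjusted p = 1.63e-05).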

How the data were processed

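Expression was measured on 12 Affymetrix Gene 1.0 ST arrays, 3 per group. The deposited values are log2 expression values, made by the authors with Affymetrix Expression Console and RMA, per the submitters' processing notes. Versions and genome build were not given in the sources used here. Its log base was read from the range, 1.26 to 14.36. RMA pulls array distributions together, which hides a change shared by most genes, and no detection call came with the values. The number of arrays limits the precision.

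Of 33297 rows, 19460 had 1 gene symbol in the platform annotation, 1754 several and 12083 none. The single-symbol row with the highest mean was kept for each of 18417 genes, and each heme enzyme had 1 such row. GLRX5 had 2 and MAFG 3, and the values of their other rows are not given here. A mean per group was fitted with limma 3.58.1 in R 4.3.3 on all arrays (8 residual degrees of freedom). Two-sided p-values were adjusted by Benjamini-Hochberg over these genes, with a threshold of 0.05 and 95% intervals. The fit was tested on simulated data.

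The genes and lists were chosen with earlier results of these data known. All 10 enzymes are named, with up to 4 genes per list and line by smallest adjusted p, GATA1, BACH1, NFE2L2, TFRC and EIF2AK1 always, and the 3 most similar profiles per enzyme; BLVRB, HCCS, KLF1 and the markers HBE1 and AHSP fall outside that rule and were named after their values were seen. Alternatives were quantile normalisation, median centring, the mean of a gene's rows, a filter on dim genes, a trended robust prior, a replicate block, single-line fits and leaving out each array. Promoter sequences and gene starts are from RefSeq, GRCh38.p14.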

Additional observations from a re-analysis of the deposited data

Results flagged for a closer look

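The response to ITF2357 differed between UKE1 and HEL cells, by limma's test of the difference itself, for 4 of the 10 enzymes, 3 higher and 1 lower, beside 10.1% higher and 13.8% lower of all genes. For HMOX1 the difference, UKE1 minus HEL, was 1.65 ± 0.11 (SE, adjusted p = 3.32e-07), and each of the 3 treated arrays lay above the untreated ones in UKE1 cells and below them in HEL cells. The UKE1 levels of HMOX1 lay near or below the array medians, so its difference compares signals alone. For UROS the difference was 0.56 ± 0.08 (adjusted p = 0.000327), and its UKE1 response alone did not pass the test. For PPOX it was 0.36 ± 0.10 (adjusted p = 0.0192), with the call lost when either of 2 UKE1 arrays was left out. For FECH it was −0.41 ± 0.09 (adjusted p = 0.00461), with a rise in both lines.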

How the results depend on the processing

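Of 920 alternative values for the 50 changes of the 10 enzymes, 905 kept their direction and side of the threshold, 0 reversed a call, 3 lost one, 4 gained one, and 8 changed the sign of a value that had not passed. The lost calls were PPOX's difference between responses without either of 2 UKE1 arrays (0.31 and 0.32) and UROS between treated lines under quantile normalisation (−0.06). Gained calls were ALAS2 in UKE1 cells without 1 treated array (0.23) and HMOX2's difference between responses without 1 treated HEL array (−0.30), with the dim-gene filter (−0.24, adjusted p = 0.0303) and with the trended prior (−0.24, adjusted p = 0.0412). Leaving out each array in turn gave 8 called enzymes in HEL cells, 7 to 8 in UKE1 cells, 3 to 5 for the difference, 10 between untreated and 9 between treated lines. Of all 18417 genes, it called 7197 to 7793 in HEL cells, 7386 to 8236 in UKE1 cells and 3726 to 4245 for the difference. Between the lines it called 11812 to 12535 genes untreated and 11761 to 12622 treated. Restricting the test to the 9208 genes with a mean above 7.01 kept all 10 enzymes and gave 7381 called genes between untreated lines (12471 over all genes) and 7295 between treated lines (12525 over all genes), since fewer genes were tested. Deviations of same-numbered samples correlated at −0.09 to 0.06 in HEL cells and 0.03 in all 3 pairs of UKE1 cells. Differently numbered samples gave −0.139 to 0.0949 in HEL cells and −0.031 to −0.00278 in UKE1 cells. With 3 arrays per group, this cannot tell whether the numbers pair the samples. With the replicate block 8 enzymes were called in HEL cells, 7 in UKE1 cells, 4 for the difference, 10 between untreated and 9 between treated lines. Over all genes, the alternatives other than leaving out 1 array, the block among them, called 6377 to 8225 in HEL cells and 6398 to 8396 in UKE1 cells. They called 3716 to 4931 for the difference, 7381 to 12548 between untreated and 7295 to 12869 between treated lines. With each array centred on its median, the share of higher calls among all genes was 44% in HEL cells (53.2% as deposited), 51.4% for the difference between responses (42.2%) and 56.8% between treated lines (50%). Among the enzymes, levels near or below the array medians limit ALAS2 and HMOX1 in UKE1 cells and, just above the medians, PPOX in untreated UKE1 cells.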
